A study of Mus musculus with 2 samples.

Results

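The naive pluripotency network genes are a set of 10 mouse genes, Pou5f1, Sox2, Nanog, Klf4, Esrrb, Tfcp2l1, Tbx3, Prdm14, Zfp42 and Dppa3, chosen by name from 21938 protein-coding genes of the GENCODE M21 annotation. Every CpG cytosine that the deposited table lists from 10 kb upstream of the gene start to the gene end was taken, which gave 1185 of the 1782730 listed cytosines. DNA methylation was measured by reduced representation bisulfite sequencing (RRBS) in Xmas mESCs, female mouse embryonic stem cells of strain C57/Bl6 that carry GFP on one X chromosome and mCherry on the other, both driven by the Hprt promoter. The cells were grown in 2i/LIF by the modified culture method, for 7 passages by the sample labels (the methods text gives another number), and sorted by FACS into XX cells, which express both reporters, and XO cells, which have lost an X chromosome. There was 1 library of each karyotype, so no difference below has a replicate error and none was tested. The karyotypes rest on the reporters, and expression was not measured, so the identity of the cells could not be checked against the expression of these genes.

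In naive mESCs, Pou5f1, Sox2 and Nanog form the core of a network of transcription factors that bind each other's regulatory regions and keep the cells self-renewing. Klf4, Tfcp2l1, Esrrb and Tbx3 connect this core to the LIF and 2i signals, and Prdm14, Zfp42 and Dppa3 mark or protect the naive state, in which DNA methylation is low. Promoters and enhancers of such genes can gain methylation when cells leave pluripotency. Methylation of a CpG (%mCpG) is the percent of its bisulfite reads that kept the cytosine, and the forward and reverse strands of a CpG are listed separately. Values are given as the mean over listed cytosines, and differences are XX minus XO in percentage points. All 10 genes are autosomal.

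RRBS commonly reads fragments cut at CCGG, the site of the enzyme MspI, and the members were covered unevenly. The 10 genes with their upstream stretches hold 11406 CpG cytosines in GRCm38, of which 10.4% were listed, and 1185 of the 1185 listed cytosines lay within 100 bp of a CCGG. Esrrb had 273 listed cytosines, Tbx3 235, Klf4 208, Sox2 202, Prdm14 98, Tfcp2l1 60, Zfp42 55, Pou5f1 23, Dppa3 23 and Nanog 8. Nanog had no listed CpG in the promoter (1 kb either side of the start) or in the gene body (from 1 kb after the start to the gene end), Sox2 had none in the gene body and Pou5f1 had none in the upstream stretch (10 kb to 1 kb before the start). The promoter of Dppa3 had 2 listed cytosines, and the upstream stretches of Klf4, Zfp42 and Dppa3 had 2, 1 and 1, which is under the minimum of 3 used for counts. Depth was not part of the table, so intervals that need read counts were not computed. As a measure of precision, 293 CpGs of the members had a value on both strands, and the median absolute strand difference was 2.65 points for XX and 4.0 points for XO. It was larger for XO at Esrrb (7.41 points), Zfp42 (8.19), Prdm14 (13.3) and Nanog (20.6, from 2 CpGs), and CpGs at 0% on both strands lower the median over all members.

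Listed CpGs at most 200 bp apart were joined into runs of at least 3 cytosines. Sequences of 6 runs before gene starts that are described below are shown first, from the GRCm38 reference and 5′ to 3′ in the direction of the gene. Each has 1 base added at either end. The 6 runs were chosen after their values were seen. Runs of similar difference that are not shown are that of Sox2 7833 to 7554 bp before the start (10.7 points) and that of Tbx3 4820 to 4553 bp before the start (-17.7 points). Capitals mark the CpGs with a listed value on at least 1 strand, and each sequence holds between 1 and 3 CCGG sites.
Sox2, 6361 to 6241 bp before the start (chr3:34644043-34644165, forward strand): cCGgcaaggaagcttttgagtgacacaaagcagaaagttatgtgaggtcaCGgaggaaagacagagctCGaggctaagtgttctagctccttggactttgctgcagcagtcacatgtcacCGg
Sox2, 597 to 467 bp before the start (chr3:34649807-34649939, forward strand): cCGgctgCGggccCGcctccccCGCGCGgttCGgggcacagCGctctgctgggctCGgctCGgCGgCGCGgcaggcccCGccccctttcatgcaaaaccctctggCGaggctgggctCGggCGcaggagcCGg
Nanog, 4625 to 4421 bp before the start (chr6:122702863-122703069, forward strand): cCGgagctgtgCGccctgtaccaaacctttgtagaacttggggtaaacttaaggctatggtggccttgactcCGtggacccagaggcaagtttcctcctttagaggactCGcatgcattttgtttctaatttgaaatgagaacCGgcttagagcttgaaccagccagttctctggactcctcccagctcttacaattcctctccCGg
Esrrb, 1976 to 1924 bp before the start (chr12:86359140-86359194, forward strand): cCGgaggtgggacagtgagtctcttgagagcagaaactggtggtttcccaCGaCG
Tfcp2l1, 2225 to 2100 bp before the start (chr1:118625719-118625846, forward strand): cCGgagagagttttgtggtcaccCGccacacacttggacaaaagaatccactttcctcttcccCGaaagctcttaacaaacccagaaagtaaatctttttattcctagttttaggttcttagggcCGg
Zfp42, 594 to 428 bp before the start (chr8:43307407-43307575, reverse strand): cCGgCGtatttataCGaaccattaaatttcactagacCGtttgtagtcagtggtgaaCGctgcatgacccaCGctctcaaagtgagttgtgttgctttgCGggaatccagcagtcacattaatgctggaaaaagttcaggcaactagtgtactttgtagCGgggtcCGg
The Sox2 sequence nearest to the start is the only CpG-dense one, with 18 listed CpGs in 133 bp, whereas the others have between 3 and 9. For comparison, the last 250 bp before the Nanog start are shown with their 3 CpGs in capitals, none of which was listed.
Nanog, 250 to 1 bp before the start (chr6:122707239-122707488, forward strand): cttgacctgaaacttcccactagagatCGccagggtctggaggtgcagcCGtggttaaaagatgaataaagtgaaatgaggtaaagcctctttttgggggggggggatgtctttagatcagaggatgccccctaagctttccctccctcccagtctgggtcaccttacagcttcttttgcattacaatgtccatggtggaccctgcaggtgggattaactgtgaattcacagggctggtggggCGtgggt
This stretch holds 0 CCGG sites. Within 500 bp either side of the start, Nanog also has 0, and 80.2% of 20807 autosomal protein-coding promoters have at least 1.

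Promoters of the 8 members with at least 3 listed cytosines had low methylation in both karyotypes, as had autosomal promoters at large. The median level of the members was 8.73% for XX against 10.4% for XO, and over all autosomal promoters it was 7.59% against 8.95%. Dppa3 (64.3% in XX versus 70% in XO cells, 2 cytosines) is not among the 8, and Nanog had no value. XX was lower at 6 of the 8 members and higher at 2. The median of their differences was -0.865 points, against -1.38 points over 13729 autosomal protein-coding promoters, of which 65.8% were lower in XX cells. The members' median was -2.80 points with medians over CpGs in place of means and -2.66 points with 500 bp either side of the start, settings for which the value over all promoters was not computed. No member promoter was at least 20 points lower or higher in XX cells, and 4.81% of all autosomal promoters were lower and 0.364% higher by that much. Esrrb, Prdm14 and Zfp42 had the highest XO promoter values of the 8, and Zfp42 had the largest difference. The Esrrb value came from 5 intronic cytosines 707 to 867 bp after the start, and its cytosine 8 bp before the start was at 0% in both libraries. The listed promoter cytosines of Prdm14 all lay in an intron, from 233 bp after the start. At 146 of the 479 promoter cytosines both libraries were at 0%.

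Gene bodies and most upstream stretches of the network genes were below the levels of autosomal genes at large, and XX cells were mostly lower there. The median upstream level of the members was 6.28% for XX against 16.0% for XO, and over all autosomal genes it was 23.7% against 39.0%, but Esrrb stood above these at 44.9% and 83.3%, as did the 1 listed cytosine of Zfp42 (46.9% and 87.5%). Upstream, XX was lower at 6 of 6 members with at least 3 listed cytosines (87.4% of 9957 autosomal genes were lower), with a median difference of -7.16 points against -11.5 points for all autosomal genes. Sox2 (-0.0842 points) and Prdm14 (-0.276 points) lay near 0, and with each CpG counted once they were at 1.64 and 1.22 points, which left 4 of 6 lower. From reverse-strand cytosines alone the members' upstream median was 0.567 points, with 2 of 4 lower. One member, Esrrb, was at least 20 points lower, and 27.3% of autosomal upstream stretches were, while 0 members and 0.462% of autosomal stretches were at least 20 points higher. In gene bodies XX was lower at 7 of 8 members (93.8% of 13943 autosomal genes), with a median difference of -5.52 points against -13.99 points. No member body differed by 20 points, whereas 26.9% of autosomal bodies were at least 20 points lower and 0.251% higher. The median XO level of the member bodies was 15.0%, and that of all autosomal bodies was 43.5%. Among the 1474 autosomal bodies with an XO level between 10% and 20%, the median difference was -4.03 points. In the same band it was -3.34 points over 1425 upstream stretches and -2.90 points over 3484 promoters. The members' median XO level falls in this band in each segment, but several members lie outside it. Of single cytosines of the members, 107 of 1185 (9.03%) had XX lower by 20 points or more and 39 (3.29%) had XX higher by as much, beside 22.4% and 3.69% of all autosomal cytosines.

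**Figure D1:**
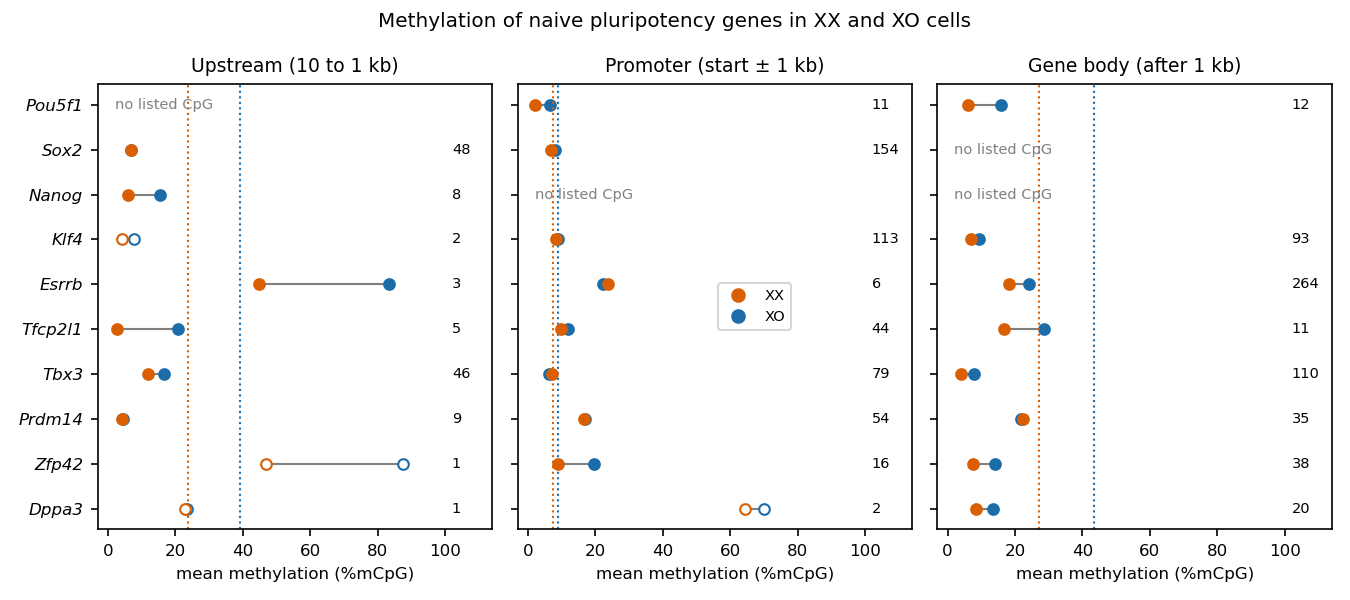
Mean methylation (%mCpG, x axis) of each member in XX (orange) and XO (blue) cells, 1 library each, in the upstream stretch, promoter and gene body, with the number of listed cytosines at the right, open circles for fewer than 3 cytosines, and dotted lines at the medians of all autosomal protein-coding genes. Promoter values of XX and XO lie close together except at Zfp42 (8.99% and 19.6%), Dppa3 and Pou5f1, and every gene body lies below the XO median of all genes (43.5%).

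Pou5f1 encodes Oct4, the POU-domain factor without which pluripotency is lost (chromosome 17, 35506018 to 35510772, forward strand, with all gene positions in GRCm38). Its promoter had 11 listed cytosines, which averaged 2.15% in XX versus 6.47% in XO cells. The XO methylation lay in the first exon, where 5 cytosines between 58 and 159 bp after the start averaged 2.16% in XX versus 12.5% in XO cells, lower in XX at 5 of 5. An intronic run, 565 to 628 bp after the start, was at 2.14% and 1.48%. The gene body had 12 listed cytosines, with 6.04% in XX versus 15.97% in XO cells. Its most methylated run, 2032 to 2171 bp after the start, was at 12.0% in XX versus 27.2% in XO cells, and XX minus XO was -33.0 points for 2 forward cytosines but -3.44 points for 3 reverse cytosines. XX was lower at 3 of 5 cytosines, and the reverse ones were at 0.556, 0.556 and -11.4 points. The strands were read at different CpGs, 2032 and 2042 bp (forward) and 2136 to 2171 bp (reverse) after the start.

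Sox2, the HMG-box partner of Oct4, is a gene of 2057 bp (chromosome 3, 34650405 to 34652461, forward strand) that lies within the longer noncoding gene Sox2ot. Its promoter averaged 6.74% in XX versus 8.04% in XO cells over 154 cytosines, and both libraries were at 0% at 63 of them. Within this promoter, neighbouring runs went in opposite directions. From 17 bp before to 922 bp after the start, mostly coding sequence, 132 cytosines averaged 2.57% in XX versus 7.20% in XO cells. Between 597 and 467 bp before the start, 22 cytosines averaged 31.8% in XX versus 13.1% in XO cells, and XX was lower at 0 of them. On the forward strand of that run, 13 cytosines were at 39.2% in XX versus 8.79% in XO cells, and on the reverse strand 9 were at 21.1% and 19.4%. The higher XX value there therefore came almost wholly from the forward cytosines. The strands were partly read at different CpGs. The forward cytosines 597 to 557 bp before the start, at 0% in XO cells, have no listed reverse value, so strand and position cannot be told apart there. In the upstream stretch the 48 cytosines averaged 6.73% and 6.81%, again from runs that differed in direction. The run 7833 to 7554 bp before the start had 14.7% in XX versus 4.002% in XO cells, and the run 6361 to 6241 bp before it had 3.84% and 28.3%. In the latter, XX was lower at 6 of 6 cytosines and on both strands (-27.9 and -20.9 points). That run also lies within another annotated gene, Gm42692 (34643264 to 34646096, forward strand).

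Nanog, the homeobox factor that stabilises the network (chromosome 6, 122707489 to 122714633, forward strand), had 1 run of 8 cytosines, 4625 to 4421 bp before the start. It averaged 5.82% in XX versus 15.5% in XO cells. The 4 forward-strand cytosines were at 9.82% in XX versus 30.3% in XO cells, and the 4 reverse-strand cytosines at 1.82% and 0.641%, so the difference rested on the forward strand. The Nanog promoter and gene body, which hold 2 and 1 CCGG sites, had no listed value.

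Klf4, a zinc-finger factor downstream of LIF signalling (chromosome 4, 55527143 to 55532466, reverse strand), had a CpG-dense start. Its promoter averaged 8.48% in XX versus 8.91% in XO cells over 113 cytosines, with XX lower at 35, equal at 34 and higher at 44. The gene body averaged 6.93% and 9.29% over 93 cytosines. None of the 4 runs in Klf4 differed by as much as 5 points. The largest difference below 0 was 1530 to 1965 bp after the start, in coding exons, with 6.80% in XX versus 11.4% in XO cells, and the largest above 0 was 769 to 573 bp before the start, with 11.9% and 7.55%. This last run held the promoter cytosine with the highest XX value of the set, at 90% in XX versus 64.3% in XO cells, 769 bp before the start of Klf4.

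Tbx3, a T-box factor of the naive network that is also used in later development (chromosome 5, 119670669 to 119684724, forward strand), had a promoter at 7.31% in XX versus 6.21% in XO cells over 79 cytosines. It was one of the 2 promoters with a higher XX mean, with XX minus XO at 3.51 points for forward and -1.24 points for reverse cytosines. The run with the highest XX value relative to XO, 356 to 36 bp before the start, was at 7.54% and 3.88%, and XX minus XO was 13.0 points for forward and -4.43 points for reverse cytosines. The upstream stretch of Tbx3 averaged 11.9% in XX versus 16.6% in XO cells over 46 cytosines. Its most methylated run, 4820 to 4553 bp before the start, was at 18.3% in XX versus 36.1% in XO cells, and XX was lower at 6 of 6 cytosines. The gene body was at 3.86% in XX versus 7.83% in XO cells over 110 cytosines, of which 58 lay in a run 9893 to 10431 bp after the start with 2.51% and 5.595%. Between 1876 and 2294 bp after the start, the strands went opposite ways, with 1.59% in XX versus 49.4% in XO cells on 6 forward cytosines and 33.2% and 10.2% on 6 reverse cytosines.

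Esrrb, an orphan nuclear receptor that responds to GSK3 inhibition in 2i, is the longest member at 160512 bp (chromosome 12, 86361117 to 86521628, forward strand). It held the run with the largest difference of the set. The 3 listed cytosines 1976 to 1924 bp before the start averaged 44.9% in XX versus 83.3% in XO cells, all on the forward strand. The promoter had 6 listed cytosines at 23.8% and 22.4%, a difference of 1.43 points that was 6.86 for forward and -3.996 for reverse cytosines and -11.8 with 2 kb taken either side of the start. The gene body averaged 18.1% in XX versus 24.1% in XO cells over 264 cytosines, with XX lower at 144, equal at 36 and higher at 84. Of the 24 runs in Esrrb and its upstream stretch, 19 were lower in XX cells, 5 of them by at least 20 points, and 0 were higher by 20 points. The same shares over runs of all autosomal genes were not computed.

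The levels in Esrrb differed by position. A second set of annotated transcription starts begins 60527 bp after the gene start, and 1 kb either side of it 48 cytosines averaged 13.3% in XX versus 8.65% in XO cells. From 60 to 63 kb, 105 cytosines averaged 12.1% in XX versus 12.8% in XO cells. The 44 body cytosines before 60 kb averaged 22.4% and 30.4%, and the 115 after 63 kb averaged 21.9% and 32.0%. Low runs also lay elsewhere in introns, such as 23 cytosines 41744 to 42002 bp after the start (0.567% in XX versus 5.48% in XO cells) and 6 cytosines 103148 to 103187 bp after it (0.439% and 3.01%). The most methylated intronic run, 16182 to 16409 bp after the start, was at 52.9% in XX versus 75.9% in XO cells. XX minus XO averaged -21.7 points for forward cytosines (-31.5, -34.2 and 0.621) and -24.5 points for reverse cytosines. The reverse mean came mostly from 1 cytosine (-68.4 points), and the others were at -2.17 and -2.84 points. The run with the largest value above 0 was at the gene end, 160375 to 160424 bp after the start, where 3 cytosines were at 66.7% in XX versus 62.7% in XO cells.

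**Figure D2:**
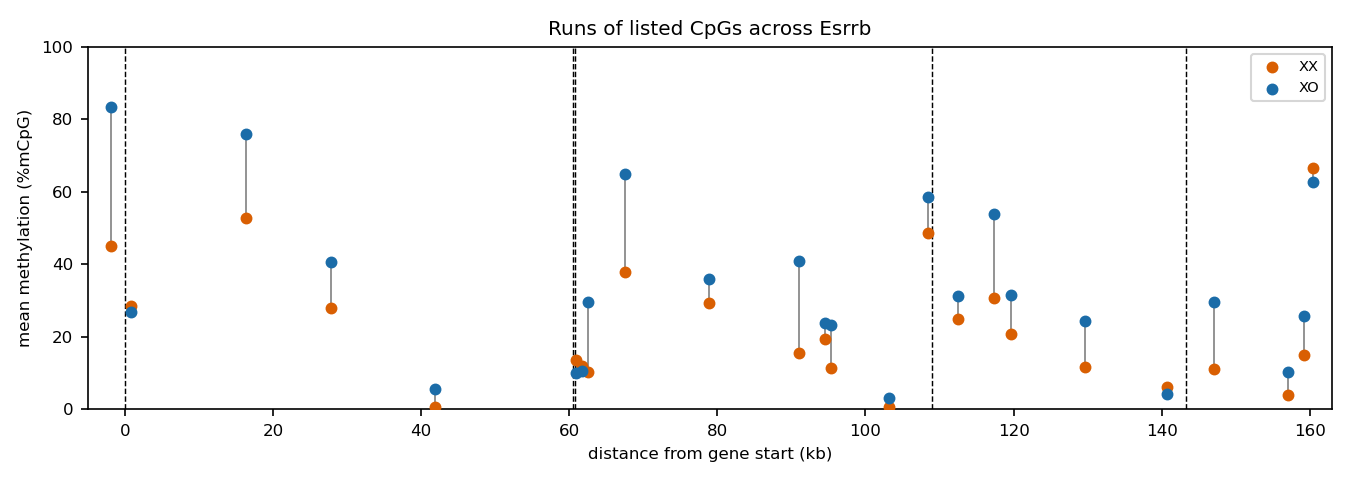
Mean methylation (%mCpG, y axis) of the 24 runs of listed CpGs in Esrrb against distance from the gene start in kb, with XX in orange and XO in blue, 1 library each, and dashed lines at annotated transcript starts. XX lies below XO in 19 runs, and the runs next to the starts near 60 kb are low in both karyotypes.

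Tfcp2l1, a target of LIF and STAT3 signalling (chromosome 1, 118627945 to 118685168, forward strand), had 44 promoter cytosines in 1 run across the start, at 9.97% in XX versus 11.9% in XO cells. The upstream stretch had 5 cytosines, 2225 to 2100 bp before the start, at 2.76% in XX versus 20.7% in XO cells. XX was lower at 5 of 5, and XX minus XO was -21.2 points for forward and -12.9 points for reverse cytosines. The body had 11 cytosines, at 16.6% in XX versus 28.6% in XO cells, a difference of -11.97 points that was -4.94 when the body was counted from the start. Its 2 runs, of 3 cytosines each, were at 29.9% in XX versus 47.0% in XO cells 30979 to 31097 bp after the start, and at 5.03% and 3.03% 24256 to 24374 bp after it.

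Prdm14, a PR-domain protein that represses the de novo methyltransferase genes in naive cells (chromosome 1, 13113457 to 13127163, reverse strand), was the member whose mean over all listed cytosines differed least (17.48% in XX versus 17.53% in XO cells). The promoter averaged 16.6% in XX versus 17.0% in XO cells over 54 cytosines, the upstream stretch 4.10% and 4.38% over 9, and the gene body 22.2% and 21.7% over 35. The body mean hid a pair of runs with opposite differences. Between 8389 and 8680 bp after the start, 13 cytosines averaged 14.9% in XX versus 38.8% in XO cells, and XX was lower at 13 of 13. Between 1563 and 2043 bp after the start, 19 cytosines averaged 30.7% in XX versus 13.4% in XO cells. There the 11 forward cytosines were at 30.3% in XX versus 2.06% in XO cells, and the 8 reverse cytosines at 31.4% and 28.99%. As in the Sox2 promoter, the higher XX value came mostly from the forward cytosines.

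Zfp42, also known as Rex1, a zinc-finger gene used as a marker of naive cells (chromosome 8, 43295063 to 43306980, reverse strand), had the largest promoter difference, with 8.99% in XX versus 19.6% in XO cells over 16 cytosines. It came from 9 cytosines 594 to 428 bp before the start, which averaged 13.0% in XX versus 32.3% in XO cells. XX was lower at 8 of 9, and the forward cytosines (-8.62 points) differed less than the reverse ones (-24.7 points). Next to it, 930 to 832 bp before the start, 5 cytosines were at 5.20% and 4.39%. The gene body averaged 7.45% in XX versus 14.1% in XO cells over 38 cytosines. Most of these were in coding sequence near the gene end, where a run of 4 cytosines on the reverse strand was at 5.88% in XX versus 30.9% in XO cells and a run of 29 at 7.23% and 13.1%. The 1 upstream cytosine, 8274 bp before the start, was at 46.9% in XX versus 87.5% in XO cells.

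Dppa3, also known as Stella (chromosome 6, 122626410 to 122630272, forward strand), had 2 listed promoter cytosines, both in an intron 895 and 939 bp after the start. They were at 64.3% in XX at both positions and at 66.7% and 73.3% in XO cells, the highest promoter level of the set. Further into the same gene, methylation was low. A run of 6 cytosines 1258 to 1295 bp after the start averaged 0.833% in XX versus 0% in XO cells. In coding sequence 2244 to 2356 bp after the start, 14 cytosines averaged 11.6% and 19.1%, and XX was lower at 11 of them. The 2 promoter values are both from the forward strand.

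**Figure D3:**
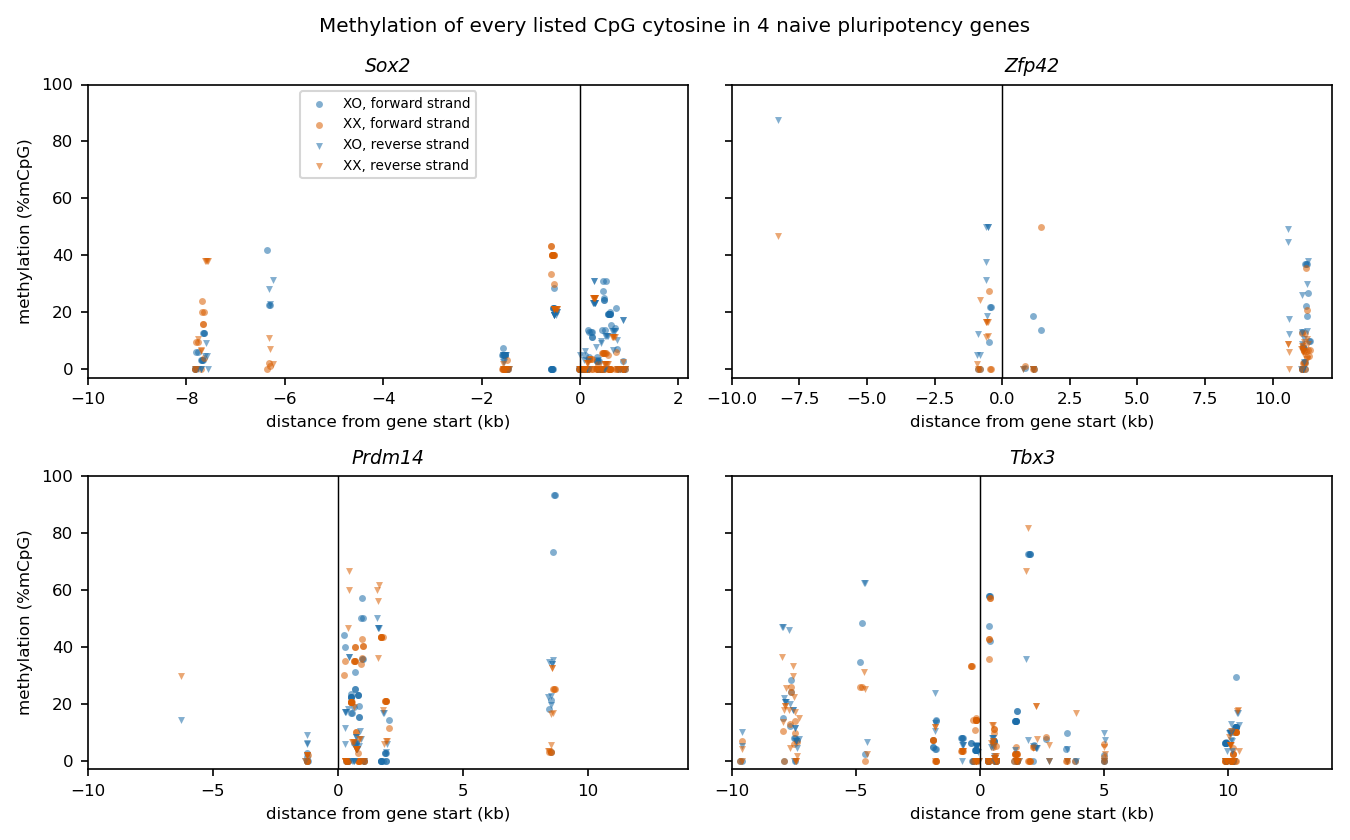
Methylation (%mCpG, y axis) of each listed cytosine against distance from the gene start in kb (x axis) for Sox2, Zfp42, Prdm14 and Tbx3, with XX in orange and XO in blue, circles for the forward and triangles for the reverse strand, 1 library each. In the Sox2 panel the orange points about 0.5 kb before the start stand above the blue ones (run means 31.8% and 13.1%), and in the Zfp42 panel the blue points at about the same distance stand above the orange ones (32.3% in XO and 13.0% in XX).

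The 66 runs of the members were compared by their XO level. Of the 27 runs with an XO mean over 20%, 25 were lower in XX cells and 8 were lower by at least 20 points, with a median of 18.3% in XX versus 31.5% in XO cells. Of the 39 runs at 20% or less, 24 were lower and 15 higher, with a median difference of -1.84 points. As XO enters both the grouping and the difference, these counts describe the runs and are no test. Runs were formed in the members only, so no share over runs of all autosomal genes stands beside these counts. By whole segments, 93.8% of autosomal bodies and 87.4% of upstream stretches were lower in XX cells. There were 3 runs at least 10 points higher in XX cells, a pair of them before the Sox2 start and the other in Prdm14. The strands gave opposite directions in 17 of the 60 runs with both strands listed, 14 of them among the runs at 20% or less. Of the 293 CpGs with both strands listed, 79 had the same direction on both strands and 65 the opposite.

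**Figure D4:**
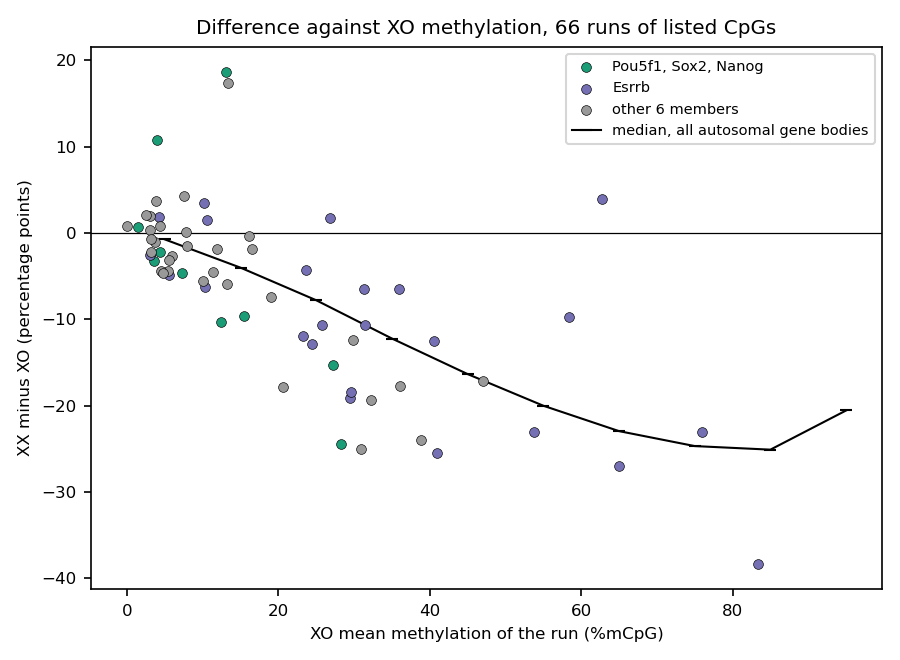
XX minus XO (percentage points, y axis) against XO mean methylation (%mCpG, x axis) for the 66 runs of listed CpGs in the 10 members, with the line giving the median over all autosomal gene bodies in 10-point bands of XO methylation. Runs over 20% in XO cells lie below 0 except 2 in Esrrb, and the points scatter around the line. The line is for means of whole gene bodies, whereas the runs are shorter and come from all segments.

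By annotation, listed cytosines in introns of the members averaged 14.7% in XX versus 19.6% in XO cells (414 cytosines in 8 genes), and those in coding exons 6.34% and 9.60% (370 in 9 genes). Cytosines outside the genes averaged 10.5% and 11.05% (245 in 9 genes). Sox2 and Zfp42 went opposite ways in this last class, with 12.9% in XX versus 7.86% in XO cells at Sox2 and 12.6% and 26.7% at Zfp42. Esrrb supplied 246 of the intronic cytosines.

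CpG density of the promoters was not used to choose the genes. The ratio of observed to expected CpGs within 500 bp of the start was 0.960 at Klf4, 0.959 at Sox2 and 0.821 at Tbx3, and between 0.283 and 0.584 at the other 7, beside a median of 0.568 over 20807 autosomal promoters. Sox2, Klf4 and Tbx3 had XO promoter levels between 6.21% and 8.91% and differences between -1.30 and 1.10 points. Of the less dense promoters, the 5 with at least 3 listed cytosines (Pou5f1, Esrrb, Tfcp2l1, Prdm14 and Zfp42) ranged from 6.47% to 22.4% in XO cells and from -10.6 to 1.43 points. The groups overlap in level and in difference.

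A list of 21 other genes of the pluripotency network was read in the same way. Nr0b1, the X-linked one, had no listed CpG. XX was lower at 11 of 14 promoters, 11 of 11 upstream stretches and 16 of 17 gene bodies with at least 3 cytosines, and the median differences were -3.63, -5.39 and -5.22 points. Over all autosomal genes 65.8%, 87.4% and 93.8% were lower, as given above. The promoter of Tdgf1 (31.0% in XX versus 72.8% in XO cells over 7 cytosines) and 2 bodies, those of Il6st and Gdf3 (24.8% and 55.5% over 6 cytosines), were at least 20 points lower, and Tdgf1 and Gdf3 are named here after their values were seen. That is 1 of 14 promoters, 0 of 11 upstream stretches and 2 of 17 bodies, beside 4.81%, 27.3% and 26.9% of all autosomal ones. Among segments with at least 10 cytosines, the largest differences below 0 were in the body of Il6st, which encodes the gp130 subunit of the LIF receptor (30.3% in XX versus 64.9% in XO cells), the body of Tcl1 (40.2% and 58.7%) and the upstream stretch of Dppa2 (8.79% and 22.4%). The largest above 0 were in the body of Socs3, a feedback inhibitor of STAT3 signalling (10.9% in XX versus 5.41% in XO cells), the promoter of Klf2 (11.5% and 8.14%) and the promoter of Socs3 (2.94% and 2.05%).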

How the data were processed

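RRBS libraries (Ovation Methylseq kit) came from 1 XX and 1 XO population of FACS-sorted Xmas mESCs. The authors deposited the percent of methylated reads at each CpG cytosine, and the submitters' processing notes name bcl2fastq, Bismark and mm10. Versions and the coverage minimum are not given in the sources used here, and percentages without read counts give no depth, so no interval was computed. Of 1782730 positions, 890585 matched forward-strand CpGs of GRCm38, 892094 matched reverse-strand CpGs and 51 matched none. Cytosines of 1 read are not independent.

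Genes and starts were those of GENCODE M21. Segment means were taken over listed cytosines, with at least 3 cytosines for counts, and a difference of 20 points was called. All 10 members are named, with the run of largest difference in each direction, and other runs named were chosen after their values were seen. For the other genes the 3 segments with the largest difference in each direction (at least 10 cytosines) are named. The members and lists were chosen with earlier results of these data known. The code was tested on simulated data, in which planted differences were found in 100% of 804 segments of 358 genes. The planted differences were constant, without noise between the libraries. The test therefore checks only how cytosines were assigned to segments, and not whether differences between real libraries are recovered. Alternatives are given in the closing section. Python 3.11.15, numpy 2.4.6, pandas 2.3.3 and matplotlib 3.10.9 were used.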

Additional observations from a re-analysis of the deposited data

How the results depend on the processing

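A difference counts as moved if an alternative shifted it by over 4.0 points, the median difference between strands in the XO library, and a count or percent if it changed by over 1.5 times. Of 183 recalculations of single member segments, 157 stayed within this and 26 moved, and 18 of the 183 changed sign. The upstream summary was least stable. With the forward strand only, its median difference was -11.6 points, and with the reverse strand only it was 0.567 points with 2 of 4 members lower in XX cells. With at least 10 cytosines, 2 members were left, both lower, and the median was -2.37 points. This tolerance is wider than the promoter median itself (-0.865 points), so it says little about promoters. Their median was -2.80 points with medians over CpGs, -2.66 with 500 bp either side of the start and -2.02 with the reverse strand only, and it was lower than -0.865 under every other alternative on strands, windows or listed CpGs. The body median was -3.20 points and the upstream median -3.94 points with medians over CpGs. With each CpG counted once, 4 of 6 members were lower upstream. Without any 1 member, the median differences ranged from -1.30 to -0.432 points for promoters, -9.65 to -4.66 for upstream stretches and -6.68 to -4.98 for bodies. The strands of Nanog upstream (-20.5 and 1.18 points), Tbx3 body (-10.2 and 1.19) and Prdm14 body (4.82 and -4.60) differed in sign. So did those of Sox2 upstream (-2.63 and 2.69) and Klf4 upstream (-11.6 and 4.16, 1 cytosine per strand). The promoters of Klf4, Esrrb, Tbx3 and Prdm14 also differed in sign between strands, and the cause was not tested. The Esrrb promoter changed from 1.43 to -11.8 points with 2 kb either side because that window takes in the 3 cytosines of the run at -38.4 points. For other pluripotency genes, at least 10 cytosines left 7 upstream stretches, 7 of them lower.

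Shares of all autosomal genes called depended on the cutoffs. With at least 10 cytosines, 1.33% of promoters and 15.3% of upstream stretches were lower, and 0.158% of promoters, 0.0580% of upstream stretches and 0.0378% of bodies higher. With at least 1 cytosine, 0.563%, 1.13% and 0.615% were higher. At 10 points, 11.7% of promoters, 54.3% of upstream stretches and 65.1% of bodies were lower and 1.99%, 1.62% and 0.775% higher. At 30 points these were 1.65%, 9.02% and 5.65%, and 0.0874%, 0.121% and 0.0502%. No paired analysis was possible because each karyotype has 1 library.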
